A study of Homo sapiens with 16 samples.

Results

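MHC class I and antigen processing is described here by 9 genes: the heavy chains HLA-B, HLA-C, HLA-E and HLA-F, the light chain B2M, the loading factors TAP1 and TAPBP, and the immunoproteasome subunits PSMB8 and PSMB9. The members were the rows of the intensity table whose gene symbol was one of these names, with every probe kept separate. This gave 12 rows of 20589 in the table, and 9 symbols of 18190. MCF10A cells, a nontransformed human mammary epithelial line, were treated with CP724,714, an inhibitor of the HER2 kinase, at 1 µM. RNA was taken from parallel plates every 3 h from 0 to 45 h, and each of the 16 time points was measured on 1 Illumina human Ref8 array. The 0 h cells were untreated. The medium held insulin, EGF and hydrocortisone and was changed when treatment began, and no untreated series was run beside the treated cells, so the effects of the inhibitor, of fresh medium and of time in culture cannot be told apart.

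Class I molecules carry peptides from inside the cell to its surface, where T cells and natural killer cells read them. The proteasome cuts proteins into peptides, the TAP transporter moves these into the endoplasmic reticulum, and tapasin helps load them onto a heavy chain paired with beta-2-microglobulin. Most nucleated cells, mammary epithelium among them, make these proteins at a basal level, and interferons and NF-κB raise their transcription.

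The deposited values were bead intensities with a detection p-value for each row, and the arrays had median intensities from 210.4 to 253.9. Intensities were corrected for background, quantile normalized and taken as log2, and all levels below are on that scale unless an intensity is named. A row was read as above background where its detection p was under 0.05, and 11957 rows that were above background on at least 3 of 16 arrays were tested with limma. Because each time point had a single array, a p-value rests on the spread around a smooth curve of time or within windows of 4 time points (0 to 9, 12 to 21, 24 to 33 and 36 to 45 h), and the 4 arrays of a window were not replicates. The number of arrays limits the precision. No probe's level is set against another probe's.

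Of the 12 rows, 11 were tested. The exception was PSMB9, which was above background only at 0 h, on 1 of 16 arrays. Fitted with a natural cubic spline, 7 of the 11 tested member probes changed over time at an adjusted p under 0.05 (limma), beside 54.6% of all tested probes, so the members' share was near that of the array as a whole. The 7 were HLA-B (ILMN_18149), HLA-E (ILMN_2073), HLA-F (ILMN_3012), B2M (ILMN_19648), TAP1 (ILMN_17479), 1 of 3 TAPBP probes (ILMN_18872) and 1 of 2 PSMB8 probes (ILMN_11795). The call count was 4 under median scaling, for which the share over all tested probes is not given here. HLA-C (ILMN_23822), the remaining TAPBP and PSMB8 probes and PSMB9 (ILMN_12611) make up the rest. On the normalized scale, the ratio of the highest to the lowest level over the 9 probes that were above background on all 16 arrays ran from 1.37 for PSMB8 (ILMN_11795) to 2.30 for HLA-B. Among other genes named below, that ratio was 15.9 for GBP2, an interferon-induced GTPase, 4.05 for HLA-DMA and 1.18 for PSMB7, a standard proteasome subunit.

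**Figure D1:**
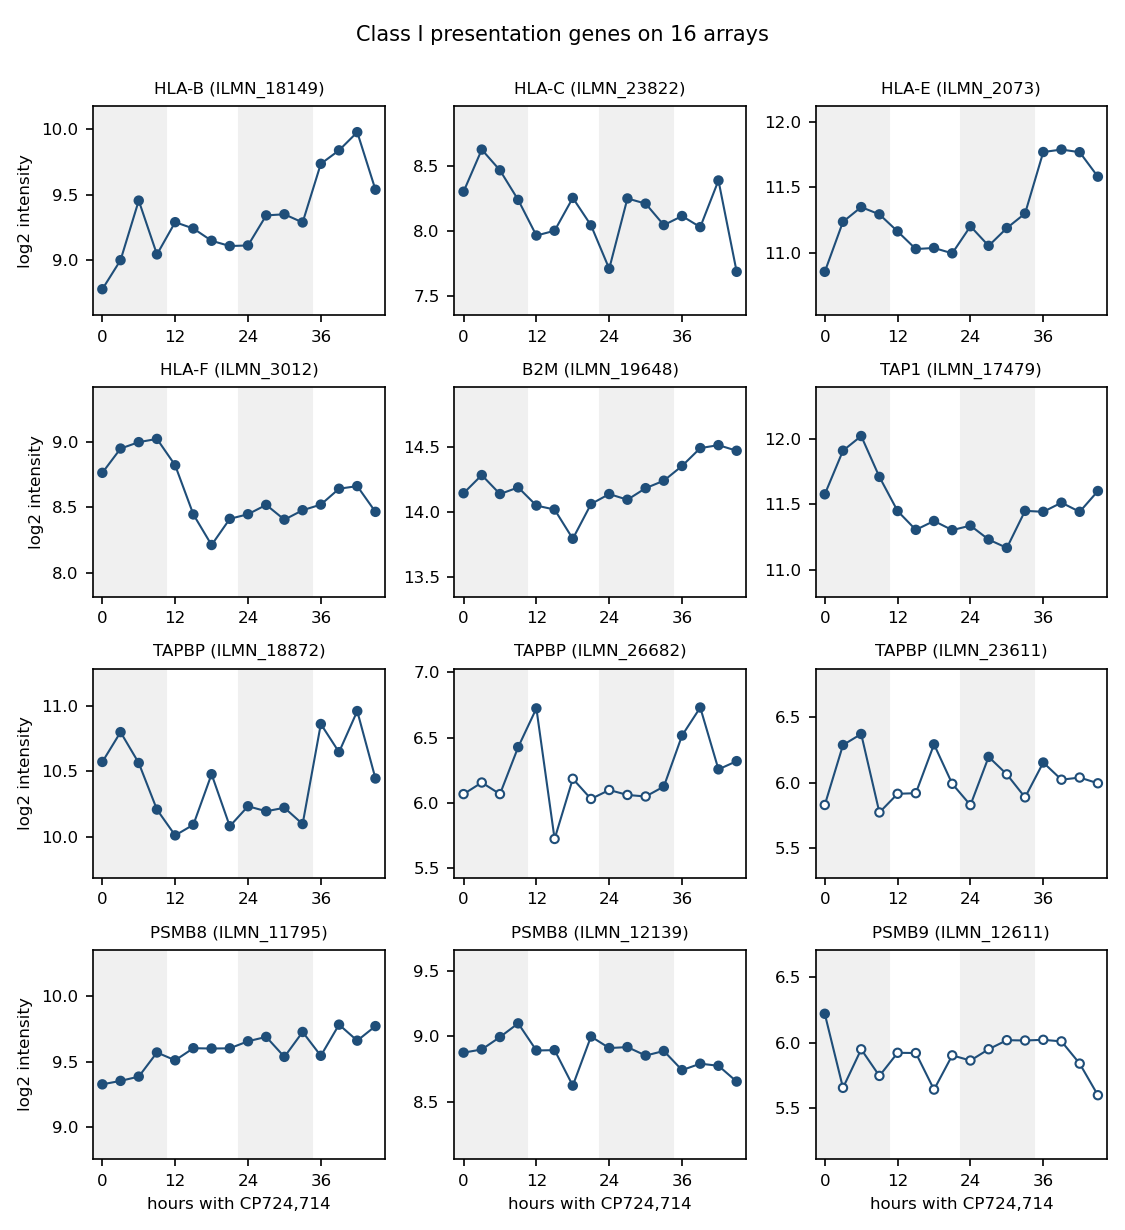
Normalized log2 intensity (vertical axes) of the 12 member probes against hours with CP724,714 (horizontal axes). Each point is 1 array; filled points were above background at detection p under 0.05, open points were not, and grey bands mark 0 to 9 h and 24 to 33 h. HLA-B, HLA-E, B2M and TAPBP (ILMN_18872) have their highest point between 36 and 45 h, while TAP1 peaks at 6 h and HLA-F at 9 h.

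To show what the promoters of members with like and unlike courses hold, sequences upstream of the gene starts were taken from RefSeq (GRCh38.p14). The set of windows used here held 8 of the 9 members, all but HLA-E, with 10 windows in all. The 250 bases before the start are printed 5′ to 3′ on the gene's strand for HLA-B (chr6:31357180-31357429, minus strand), HLA-C (chr6:31272093-31272342, minus), B2M (chr15:44711267-44711516, plus), TAP1 (chr6:32853705-32853954, minus) and TAPBP (chr6:33314079-33314328, minus). HLA-B, B2M and TAPBP are shown because they rose from 24 to 33 h to 36 to 45 h, and HLA-C and TAP1 because they were not called in that comparison with all 16 arrays. Capitals mark matches, on either strand, to 4 motifs: AANNGAAA, the core bound by interferon regulatory factors; GGGNNTTNC, which is part of the κB motif; TGACG, the first part of a cyclic AMP response element; and the CCAAT box. No matches of different motifs overlapped in these windows.
HLA-B: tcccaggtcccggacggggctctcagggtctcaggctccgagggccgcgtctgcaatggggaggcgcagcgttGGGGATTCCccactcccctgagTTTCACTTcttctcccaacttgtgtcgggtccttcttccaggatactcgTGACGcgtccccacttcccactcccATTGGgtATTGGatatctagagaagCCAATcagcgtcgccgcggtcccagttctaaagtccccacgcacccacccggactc
HLA-C: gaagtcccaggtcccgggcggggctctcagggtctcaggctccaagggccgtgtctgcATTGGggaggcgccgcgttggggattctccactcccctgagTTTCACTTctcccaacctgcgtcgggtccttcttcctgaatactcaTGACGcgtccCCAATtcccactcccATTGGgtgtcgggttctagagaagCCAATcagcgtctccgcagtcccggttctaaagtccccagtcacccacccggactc
B2M: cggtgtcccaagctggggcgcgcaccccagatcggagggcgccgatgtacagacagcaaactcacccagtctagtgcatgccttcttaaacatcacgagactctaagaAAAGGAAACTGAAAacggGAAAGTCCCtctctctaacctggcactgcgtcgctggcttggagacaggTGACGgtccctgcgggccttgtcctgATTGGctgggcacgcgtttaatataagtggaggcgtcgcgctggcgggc
TAP1: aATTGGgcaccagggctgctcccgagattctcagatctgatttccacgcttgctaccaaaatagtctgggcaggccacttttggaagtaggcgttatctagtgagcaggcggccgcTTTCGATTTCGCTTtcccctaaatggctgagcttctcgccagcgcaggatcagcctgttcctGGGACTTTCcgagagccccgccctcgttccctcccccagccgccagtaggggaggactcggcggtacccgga
TAPBP: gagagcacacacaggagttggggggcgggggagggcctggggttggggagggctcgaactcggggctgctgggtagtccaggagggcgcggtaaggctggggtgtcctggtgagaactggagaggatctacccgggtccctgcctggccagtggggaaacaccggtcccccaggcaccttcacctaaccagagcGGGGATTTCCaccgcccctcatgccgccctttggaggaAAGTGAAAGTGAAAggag

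The interferon regulatory factor core was present upstream of 6 of the 8 members (HLA-B, HLA-C, HLA-F, B2M, TAP1 and TAPBP), and in 6 of their 10 windows, beside 20.3% of 35116 RefSeq windows of this length. GGGNNTTNC was found for 5 members (HLA-B, B2M, TAP1, TAPBP and PSMB8) and in 14.2% of all windows. HLA-B held this motif 177 to 169 bases before its start, and the HLA-C window held no match to it. TGACG was found for 5 members and in 21.2% of all windows, and CCAAT for 6 members and in 32%. Each of these members held the motif in a single window, and the other TAP1 window held no match to any of the 4 motifs. The motifs were chosen after the member windows had been read, and several members are related by descent, so the shares are a description. The start of TAP1 lies 488 bases from that of PSMB9, which is read in the opposite direction.

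HLA-B, a classical heavy chain that presents peptides to cytotoxic T cells, was at 8.78, 9.00, 9.46 and 9.04 from 0 to 9 h. It was at 9.29, 9.24, 9.15 and 9.11 from 12 to 21 h, at 9.11, 9.34, 9.35 and 9.29 from 24 to 33 h, and at 9.74, 9.84, 9.98 and 9.54 from 36 to 45 h. Its 0 h array was the lowest of the 16, and the 4 late arrays lay above each of the other 12. HLA-B rose by 0.70 ± 0.13 (log2, SE; 1.63-fold) from 0 to 9 h to 36 to 45 h (limma, adjusted p = 0.000474). It rose by 0.50 ± 0.13 from 24 to 33 h to 36 to 45 h (limma, adjusted p = 0.00513). The HLA heavy chains are near-identical in long stretches and the probe sequences were not used here, so a signal shared between paralogs is uncertain for each of these probes.

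HLA-E, which presents leader peptides of other class I chains to natural killer cells, was at 10.85, 11.24, 11.35 and 11.29 from 0 to 9 h and at 11.16, 11.03, 11.04 and 10.996 from 12 to 21 h, the last being its lowest level after 0 h. It was at 11.20, 11.05, 11.19 and 11.30 from 24 to 33 h, and then at 11.77, 11.79, 11.77 and 11.58. As for HLA-B, the 0 h array was the lowest and the 4 late arrays did not overlap the other 12. HLA-E rose by 0.54 ± 0.10 from 24 to 33 h to 36 to 45 h (1.46-fold; limma, adjusted p = 0.000259), and by 0.54 ± 0.10 from 0 to 9 h (limma, adjusted p = 0.000345). The difference of 12 to 21 h from 0 to 9 h was -0.13, with an adjusted p of 0.348, which became 0.0264 without the 0 h array (limma, log2 change -0.24) and had the other sign, 0.06, under median scaling.

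HLA-F, a nonclassical chain found largely inside cells, followed another course. It was at 8.76, 8.95, 9.00 and 9.02 from 0 to 9 h, and at 8.82, 8.45, 8.21 and 8.41 from 12 to 21 h. From 24 h on it lay between 8.41 and 8.66, below each of the 4 early arrays. HLA-F fell by 0.46 ± 0.12 from 0 to 9 h to 12 to 21 h (limma, adjusted p = 0.00734) and was 0.36 ± 0.12 log2 units lower at 36 to 45 h than at 0 to 9 h (limma, adjusted p = 0.0274). With only the 8 arrays compared in each fit, limma called neither difference. The later call was lost under median scaling, with a log2 change of -0.21 and an adjusted p of 0.197. It was also lost without the 6 h array (-0.34), the 9 h array (-0.33), the 36 h array (-0.34) or the 45 h array (-0.33), at limma adjusted p-values of 0.0626, 0.0561, 0.0614 and 0.0742.

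HLA-C, a classical chain that is also a main ligand of killer cell immunoglobulin-like receptors, varied more from array to array. It was at 8.30, 8.62, 8.46 and 8.24 from 0 to 9 h, between 7.97 and 8.25 from 12 to 21 h, between 7.71 and 8.25 from 24 to 33 h, and at 8.11, 8.03, 8.39 and 7.69 from 36 to 45 h. Its windows overlapped, and it passed no test. The log2 difference of 36 to 45 h from 0 to 9 h was -0.35, with a 95% confidence interval from -0.67 to -0.03 before adjustment and a limma adjusted p of 0.0888, which was 0.0362 without the 42 h array (-0.46).

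B2M, the light chain that all of these heavy chains need to reach the surface, was at 14.14, 14.28, 14.14 and 14.19 from 0 to 9 h. It was at 14.05, 14.02, 13.80 and 14.06 from 12 to 21 h, at 14.14, 14.09, 14.18 and 14.24 from 24 to 33 h, and at 14.35, 14.49, 14.51 and 14.47 from 36 to 45 h. The 4 early arrays lay above the 4 of 12 to 21 h, and the 4 late arrays above all others. B2M fell by 0.21 ± 0.06 to 12 to 21 h (limma, adjusted p = 0.0146) and rose by 0.29 ± 0.06 from 24 to 33 h to 36 to 45 h (1.22-fold; limma, adjusted p = 0.000903). It was 0.27 ± 0.06 log2 units higher at 36 to 45 h than at 0 to 9 h (limma, adjusted p = 0.00245). The early fall was not called under median scaling (-0.07, adjusted p = 0.411), without the 3 h array (-0.18, adjusted p = 0.0563) or without the 18 h array (-0.14, adjusted p = 0.0531), each from limma. Of the 11 tested probes B2M had the lowest adjusted p for the spline of time, 0.00011 (limma). In these bulk samples, fewer cells that express a gene and less of its RNA per cell cannot be told apart.

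TAP1, which forms the peptide transporter together with TAP2, had an early peak. It was at 11.58 at 0 h, 11.91 at 3 h, 12.02 at 6 h and 11.71 at 9 h. It was at 11.45, 11.30, 11.37 and 11.30 from 12 to 21 h, at 11.34, 11.23, 11.17 and 11.45 from 24 to 33 h, and at 11.44, 11.51, 11.44 and 11.60 from 36 to 45 h. The 4 early arrays lay above all 8 arrays from 12 to 33 h, and of the late arrays only that of 45 h reached the level of the untreated cells. TAP1 fell by 0.45 ± 0.09 from 0 to 9 h to 12 to 21 h (limma, adjusted p = 0.00135), the lowest adjusted p of the 11 probes in that comparison. Under median scaling the fall was smaller, with a log2 change of -0.26 and an adjusted p of 0.0365. At 36 to 45 h it was 0.30 ± 0.09 log2 units lower than at 0 to 9 h (limma, adjusted p = 0.0159). This call was lost without the 6 h array (-0.23, adjusted p = 0.061) and under median scaling (-0.18, adjusted p = 0.149). The difference of 0.20 between 36 to 45 h and 24 to 33 h was not called (limma, adjusted p = 0.0868), and it was called without the 0 h array (adjusted p = 0.0455) or the 33 h array (0.26, adjusted p = 0.046).

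TAPBP encodes tapasin, which bridges the TAP transporter and the empty class I molecule. Its bright probe (ILMN_18872) was at 10.57, 10.80, 10.56 and 10.21 from 0 to 9 h and at 10.01, 10.09, 10.48 and 10.08 from 12 to 21 h. It was between 10.10 and 10.23 from 24 to 33 h, and at 10.86, 10.65, 10.96 and 10.44 from 36 to 45 h. The late arrays lay above those of 24 to 33 h and overlapped the early ones. TAPBP rose by 0.54 ± 0.13 from 24 to 33 h to 36 to 45 h (1.46-fold; limma, adjusted p = 0.0035). It was 0.37 ± 0.13 log2 units lower at 12 to 21 h than at 0 to 9 h (limma, adjusted p = 0.0426), a call that was lost under median scaling (-0.20) and in 10 of 16 fits that each left out 1 array. Those arrays were 0, 3, 6, 12, 15, 21, 24, 27, 30 and 39 h, and the change over the 16 fits lay between -0.48 and -0.28. The late level did not differ from the early one beyond the spread (0.19, adjusted p = 0.284).

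The other 2 TAPBP probes were near background. ILMN_26682 was above background on 7 arrays, among them all 4 from 36 to 45 h, and its highest normalized level was at least 1.53 times its lowest. ILMN_23611 was above background on 5 arrays, spread over all 4 windows. Neither passed a test in any comparison with all 16 arrays. ILMN_26682 was above background on 1 of the 4 arrays from 24 to 33 h, and its difference to 36 to 45 h was not called (limma, adjusted p = 0.0928; 0.0348 without the 12 h array). Which transcripts the 3 probes match was not examined here.

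PSMB8 and PSMB9 are catalytic subunits that replace the standard ones in the immunoproteasome. The PSMB8 probe ILMN_11795 was at 9.33, 9.35, 9.39 and 9.57 from 0 to 9 h, between 9.51 and 9.60 from 12 to 21 h, between 9.54 and 9.73 from 24 to 33 h, and at 9.55, 9.78, 9.66 and 9.77 from 36 to 45 h. The first 3 arrays were the lowest of the 16. It was 0.28 ± 0.09 log2 units higher at 36 to 45 h than at 0 to 9 h (limma, adjusted p = 0.0201), a call lost without the 39 h array (0.25, adjusted p = 0.0647) or the 45 h array (0.25, adjusted p = 0.0563). The probe ILMN_12139 was between 8.87 and 9.10 from 0 to 9 h and between 8.65 and 8.79 from 36 to 45 h. Its difference had the opposite sign, -0.23, and was not called (limma, adjusted p = 0.0841). The difference between the 2 PSMB8 probes was not tested.

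PSMB9 had an intensity of 250.6 at 0 h, with a detection p of 0.0325, and between 168.7 and 229.4 at the 15 later time points, none of which was above background. No fold is given for it. Of the standard catalytic subunits, which PSMB8 and PSMB9 and their relative PSMB10 displace, PSMB6 was 0.25 ± 0.06 log2 units lower at 36 to 45 h than at 0 to 9 h (limma, adjusted p = 0.00356), a call that was lost under median scaling (-0.15, adjusted p = 0.1). PSMB5 differed by 0.02 ± 0.07 and PSMB7 by 0.06 ± 0.05, and neither was called. All 3 were above background on every array.

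Between 0 to 9 h and 36 to 45 h, the longest interval that the windows give, 4 of the 11 tested member probes rose (HLA-B, HLA-E, B2M and PSMB8 ILMN_11795) and 2 fell (HLA-F and TAP1). The background was 16.2% of 11957 probes higher and 15% lower, 31.2% in either direction. The median log2 change was 0.19 over the members and -0.02 over all tested probes. From 0 to 9 h to 12 to 21 h, limma called none higher and 4 lower (HLA-F, B2M, TAP1 and TAPBP ILMN_18872), beside 15.1% higher, 14.4% lower and 29.5% in either direction over the array. At an unadjusted p under 0.05 there were 5 of 11 members and 4724 of all 11957 probes. The medians were -0.13 and 0.00. Under median scaling B2M and TAPBP were no longer called and PSMB8 (ILMN_11795) was called higher (0.33, adjusted p = 0.0125). Both comparisons share the arrays of 0 to 9 h, and other comparisons with a window in common share its arrays in the same way. The share of members called from 0 to 9 h to 12 to 21 h was near the background, and a share near it is not a result about the members. The share from 0 to 9 h to 36 to 45 h was higher than the background, which is a description of 11 chosen probes and was not tested.

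From 12 to 21 h to 24 to 33 h limma called no member and 0.0251% of all probes, with 1 of 11 members and 585 of all 11957 probes at an unadjusted p under 0.05. The member was B2M, with a log2 change of 0.18 and an adjusted p of 0.76. From 24 to 33 h to 36 to 45 h, 4 member probes rose (HLA-B, HLA-E, B2M and TAPBP ILMN_18872) and limma called none lower. At an unadjusted p under 0.05 there were 6 of 11 members and 5430 of all 11957 probes. Over the array 19.3% were higher, 18.7% lower and 38% called in either direction. The share of members called in either direction was near the background. All 4 member calls were upward, which is a description of 11 chosen probes and was not tested. The members' median was 0.20 and that of all tested probes 0.00.

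**Figure D2:**
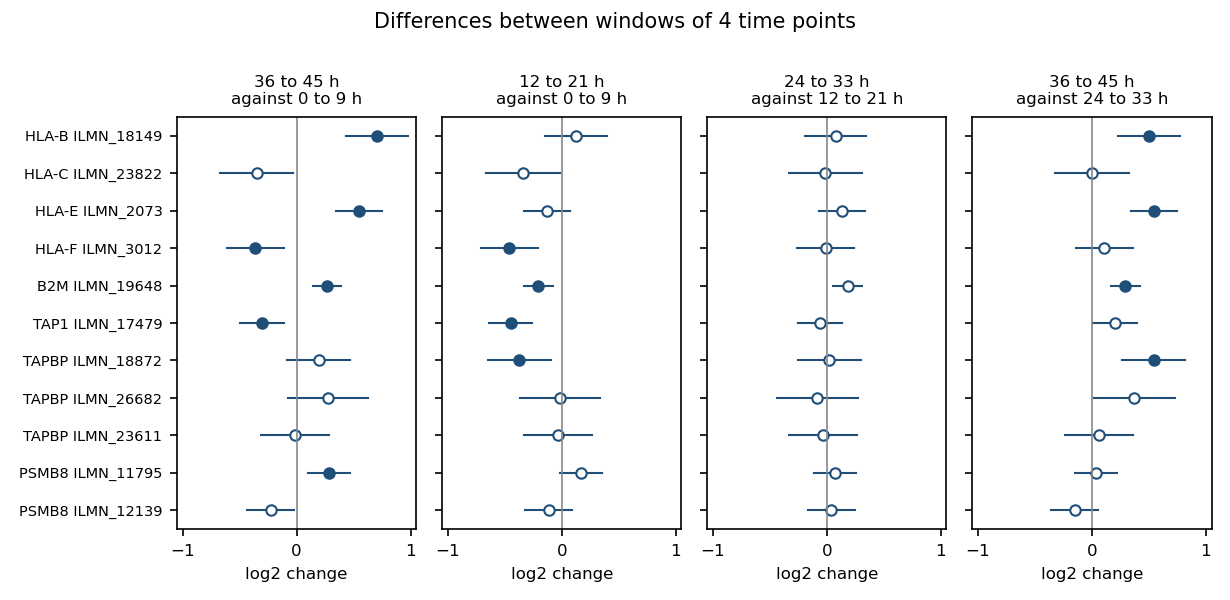
Log2 change (horizontal axes) of the 11 tested member probes between windows of 4 time points, with 95% confidence intervals from limma before adjustment. Filled points had an adjusted p under 0.05. In the comparison of 36 to 45 h with 24 to 33 h the 4 filled points, at 0.50, 0.54, 0.29 and 0.54, all lie to the right of 0, and in that of 12 to 21 h with 0 to 9 h all 4 lie to the left.

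Median scaling in place of quantile normalization turned none of these called changes to the other direction, and all 4 late rises kept their calls under it, at 0.39 for HLA-B, 0.36 for HLA-E, 0.19 for B2M and 0.41 for TAPBP. It changed the split of calls over the array, however. Of the calls between 24 to 33 h and 36 to 45 h, 50.8% were upward after quantile normalization and 37% after median scaling. For 36 to 45 h against 0 to 9 h these shares were 51.8% and 73.1%, and for 12 to 21 h against 0 to 9 h 51.2% and 73.1%. For 24 to 33 h against 12 to 21 h, 0 of 3 calls were upward after quantile normalization and 8 of 11 after median scaling. No scaling moved the median of all tested probes by as much as 0.1 log2 units.

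The comparison of 36 to 45 h with 0 to 9 h also spans the first 8 and the last 8 time points, which may have been on different chips, since a Ref8 chip holds 8 arrays and the labels name no chip. When the 2 differences inside these sets were summed, an alternative added after the data were seen, only HLA-B of the 11 members was called (0.63; limma, adjusted p = 0.0292), beside 13.5% of all tested probes. HLA-E was at 0.41 with an adjusted p of 0.0513, and B2M at 0.09 with an adjusted p of 0.564, where the direct difference was 0.27. The late rises from 24 to 33 h to 36 to 45 h lie inside the last 8 arrays, and with only these 8 in the fit limma called 6 of the 11 members, all higher, beside 48.6% of all tested probes called and 24.2% called higher. The 6 were the 4 above, TAP1 and TAPBP (ILMN_26682).

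The steps between consecutive arrays show when levels changed, without a test. From 0 to 3 h all 11 tested member probes were higher on the later array, with a median step of 0.22, while 49.1% of all tested probes were higher. Of these, TAPBP ILMN_26682 was above background at neither time and TAPBP ILMN_23611 not at 0 h. The steps of PSMB8 were small, 0.03 for ILMN_11795 and 0.02 for ILMN_12139. From 33 to 36 h, 8 of 11 were higher, beside 49.2% of all. That step was 0.45 for HLA-B, 0.47 for HLA-E, 0.11 for B2M and 0.77 for TAPBP (ILMN_18872). B2M continued with 0.14 from 36 to 39 h. From 42 to 45 h 8 of 11 were lower, while 52.4% of all tested probes were higher, with steps of -0.44 for HLA-B, -0.70 for HLA-C and -0.52 for TAPBP. The 0 h array is the only one of cells before the medium change, and the first step rests on it.

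Of 20 further genes of the class I pathway, 15 were tested. From 24 to 33 h to 36 to 45 h 2 rose and 8 fell, with a median of -0.26 over the list. For this and the lists that follow, the late comparison had 19.3% of all tested probes higher and 18.7% lower, with a median of 0.00, and a list's share near these is not a result about the list.

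PSME3, an activator cap of the nuclear proteasome, rose by 0.47 ± 0.10 to 12 to 21 h and fell by 1.02 ± 0.10 from 24 to 33 h to 36 to 45 h (limma, adjusted p = 0.00133 and 5.35e-07). CALR, a chaperone of the loading complex, fell by 0.50 ± 0.10 in the late comparison (limma, adjusted p = 0.000937). From 0 to 9 h to 12 to 21 h, 5 of the 15 rose and limma called none lower, beside 15.1% and 14.4% of all tested probes. From 0 to 9 h to 36 to 45 h 2 rose and 4 fell, beside 16.2% and 15%. Under median scaling 8 of the 15 rose in the early comparison and 1 in the late one, beside 2805 and 1719 of 11957. Of the 3 standard catalytic subunits 1 fell in the late comparison and none rose, and under median scaling 3 fell. The single late call, PSMB6 (-0.18), was lost without the 33 h array (-0.17) or the 45 h array (-0.14).

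Of 15 regulators of class I transcription, all tested, 3 rose and 1 fell (2 under median scaling) from 24 to 33 h to 36 to 45 h, with a median of -0.01. IRF9, the DNA-binding part of the interferon-activated complex ISGF3, rose by 0.95 ± 0.12 (limma, adjusted p = 1.03e-05). The other 2 that rose were IRF1 (0.65) and STAT2 (1.28), names chosen after their values were seen. IRF2, a relative of IRF1 that can act against it, was 0.52 ± 0.15 log2 units lower at 36 to 45 h than at 0 to 9 h (limma, adjusted p = 0.0151), a call lost under median scaling (-0.37), without the 6 h array (-0.42) and without the 42 h array (-0.45). Of 6 interferon receptors and kinases tested of 7, 1 rose in the late comparison, IFNGR1, a chain of the interferon gamma receptor, by 0.88 ± 0.15 (limma, adjusted p = 0.00016). None of the 6 fell, and 1 did under median scaling and under cyclic loess.

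Of 23 interferon-stimulated genes 16 were tested, and in the late comparison 4 rose and 2 fell, with a median of 0.14. GBP2 was at 7.20 on average from 24 to 33 h and at 10.24 from 36 to 45 h, a rise of 3.04 ± 0.29 (limma, adjusted p = 7.26e-07), after a fall of 1.12 ± 0.29 to 12 to 21 h (limma, adjusted p = 0.00814). ISG15, a ubiquitin-like protein, went the other way and fell by 1.28 ± 0.15 in the late comparison (limma, adjusted p = 5.63e-06). IRF7, which drives type I interferon genes, was 0.67 ± 0.17 log2 units lower at 36 to 45 h than at 0 to 9 h (limma, adjusted p = 0.00651). In the late comparison the difference of this IRF7 probe was -0.34 and was not called (limma, adjusted p = 0.139). A dimmer IRF7 probe, looked at after its values were seen, rose by 0.76 in that comparison.

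**Figure D3:**
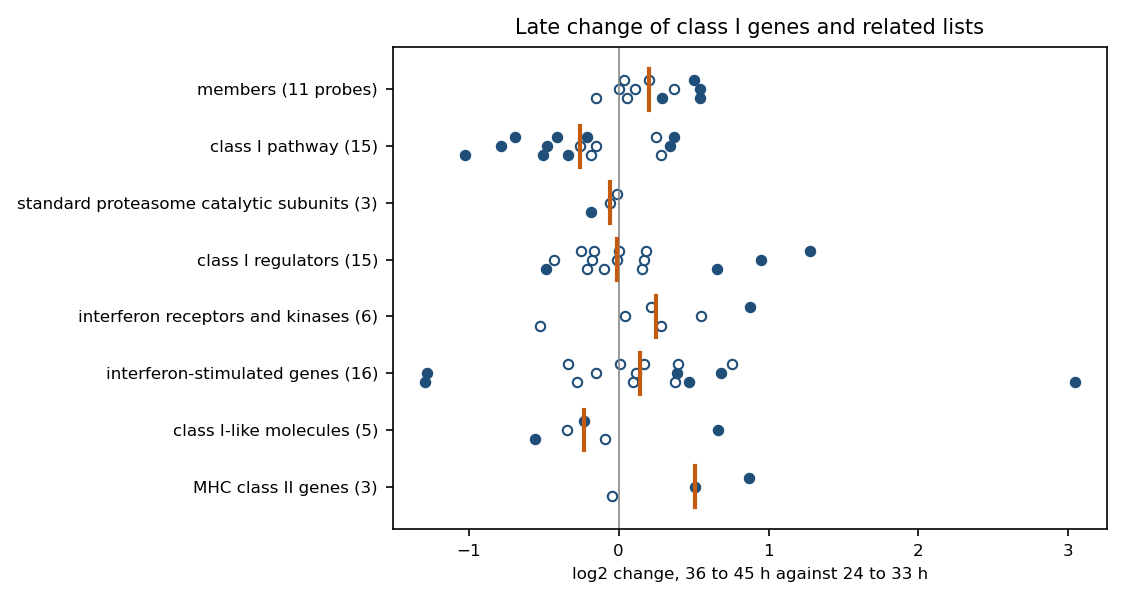
Log2 change from 24 to 33 h to 36 to 45 h (horizontal axis) of the member probes and of the brightest tested probe of each gene in 7 related lists, with the number tested in parentheses. Each point is 1 probe, filled where the limma adjusted p was under 0.05, and orange bars are medians; the median was 0.20 for the members and -0.26 for the other class I pathway genes.

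Among 9 class I-like molecules 5 were tested, of which 1 rose and 2 fell from 24 to 33 h to 36 to 45 h. MICB, a stress-induced ligand of the natural killer receptor NKG2D, fell by 0.55 ± 0.16 (limma, adjusted p = 0.00953). Of 12 MHC class II genes 11 matched a symbol and 3 were tested, of which 2 rose late and none fell. HLA-DMA, which helps to load class II molecules, fell by 1.41 ± 0.15 to 12 to 21 h and rose by 0.87 ± 0.15 in the late comparison (limma, adjusted p = 6.03e-06 and 0.000244). HLA-DOB, a modulator of that step, rose by 0.51 ± 0.16 late (limma, adjusted p = 0.0191), a call lost without the 27 h array (0.44) and without the 42 h array (0.48).

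The genes most like the members were ranked by Pearson's r over the 16 arrays with the mean of the mean-centred courses of the 11 tested member probes. That mean was -0.10 at 0 h, 0.15 at 6 h, -0.17 at 15 h and 0.21 at 42 h. The closest were ATP6V0A1 (r = 0.951), a subunit of the vacuolar proton pump, SDCBP2 (0.922), TMC6 (0.920), NDRG1 (0.915) and GRINA (0.909), where the median over all tested probes was -0.0017. Arrays next to each other in time are not independent, and r is given as a description. The members themselves ranged from 0.84 for HLA-E to -0.15 for PSMB8 (ILMN_12139), where the mean includes the probe itself and weighs probes with a wide range more.

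**Figure D4:**
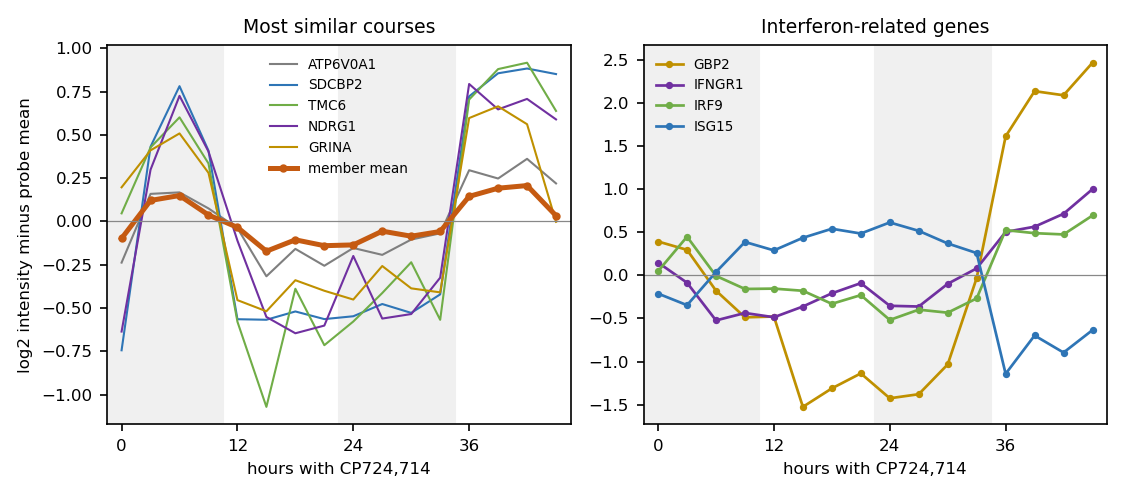
Log2 intensity minus each probe's mean (vertical axes, on different scales) against hours with CP724,714, 1 value per array; grey bands mark 0 to 9 h and 24 to 33 h. Left, the mean course of the 11 member probes with the 5 genes most like it (r from 0.909 to 0.951); right, IFNGR1, IRF9 and GBP2, which rose from 24 to 33 h to 36 to 45 h, and ISG15, which fell by 1.28.

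The labelled cell type was checked against its markers. Of 13 mammary epithelial markers 12 were tested, and KRT5 was above background on all 16 arrays. KRT14 was above background on 1 of 16 arrays. The summed level of the list lay between 78192 and 107872 from 0 to 9 h and between 102361 and 111207 from 36 to 45 h. In the late comparison 6 of the 12 rose and none fell (3 under median scaling). Of all 11957 tested probes, 1719 were called higher and 2933 lower in that comparison under median scaling. Among the 6 that rose were ITGB4, an integrin chain of hemidesmosomes (0.99 ± 0.13; limma, adjusted p = 1e-05), and KRT17, a keratin of basal cells (0.73 ± 0.25; limma, adjusted p = 0.0272). The KRT17 call was lost under median scaling (0.59), without the 30 h array (0.68), the 33 h array (0.72) or the 45 h array (0.65). TP63, a transcription factor of basal cells, was above background on no array from 0 to 9 h and on all 4 from 36 to 45 h, and was at least 2.55-fold higher there, the early level being set per array to the higher of its own value and the lowest above-background signal (limma, adjusted p = 6.71e-07).

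Of 8 leukocyte markers 4 were above background on no array, CD3E, MS4A1 and ITGAM among them, and none of the 3 PTPRC probes was above it on more than 5 of 16. LYZ was above background on 1 array, CD14 on 12 and CD2 on all 16. CD14, a coreceptor for bacterial lipopolysaccharide, was above background on no array from 0 to 9 h and rose at least 2.74-fold to 36 to 45 h (limma, adjusted p = 1.33e-07), while CD2 was 0.51 ± 0.18 log2 units lower (limma, adjusted p = 0.0336), a call lost under both other scalings (-0.42 and -0.44) and without the 0 h (-0.41), 6 h (-0.47), 39 h (-0.45) or 45 h array (-0.41). The summed level of the leukocyte list lay between 385.1 and 454.9 from 0 to 9 h and between 514.2 and 572.6 from 36 to 45 h. Of 6 fibroblast markers 5 were above background on no array, and the list summed to between 244.9 and 300.5 over the series. Of 4 endothelial markers, CDH5 and VWF were above background on no array and KDR and PECAM1 on 15 of 16 each. PECAM1, an adhesion molecule, was 0.84 ± 0.15 log2 units higher at 36 to 45 h than at 0 to 9 h (limma, adjusted p = 0.000296). The part of these markers in the class I values was not tested.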

How the data were processed

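The authors deposited linear bead intensity values, not background subtracted, with a detection p-value for each of 20589 rows on each of 16 arrays. Summary software and annotation build were not given in the sources used here. Of the rows, 1497 had a detection p that was not a whole step of the negative control scale, and background was estimated from the other 19092. Of the 1497, 653 were not tested, and 53 of these had a median intensity above that of the tested rows, so being below background or untested does not always mean a dim row. All member rows were of the other kind. From these values, background was corrected by normexp (offset 16) and arrays were quantile normalized with limma 3.58.1 in R 4.3.3. Rows with detection p under 0.05 on at least 3 arrays (11957) were fitted with lmFit and eBayes with a trend: a moderated F-test over the 3 df of a natural spline in time, and 4 contrasts of windows of 4 time points. Adjustment was by Benjamini-Hochberg over all tested rows, with calls under 0.05. The steps were tested on simulated data.

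The members and gene lists were chosen with earlier results of these data known. Named genes were all members, every probe; in each list at most the 3 genes with the largest absolute change from 0 to 9 h to 36 to 45 h among those called, by brightest tested probe; the 3 standard proteasome subunits; and the 5 symbols most like the members' mean course. Lists were matched by symbol or older alias, so that IRF9, ISG15 and TP63 stand for rows with older names. Alternatives changed the background, the scaling, the filter, the threshold, the curve and the arrays in the fit.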

Additional observations from a re-analysis of the deposited data

How the results depend on the processing

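Every alternative refitted all tested rows with limma. The sum of differences inside the sets of 8 arrays, the named genes' changes and the list counts were added after the data were seen. The cause of any difference was not tested. No paired analysis was possible because each time point had 1 array.

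Time-dependent member probes numbered 7, and 4 under median scaling, 4 at adjusted p under 0.01, 3 with the first and last 8 arrays as a term, and 3 with a straight line. Where no share over all tested probes stands beside a count in this paragraph, the count is not a result about the members. From 0 to 9 h to 36 to 45 h 6 were called, and 3 at adjusted p under 0.01. With only the 8 arrays compared there were 3, beside 20.7% of all tested probes. The sum inside the sets gave 1, beside 13.5%. From 0 to 9 h to 12 to 21 h 4 were called, and 2 at adjusted p under 0.01. With only the 8 arrays compared 1 was called, TAP1, beside 18.2% of all tested probes. The early fall of HLA-F was not called in that fit. Leaving out 1 array gave 6 to 7 (time), 4 to 7 (36 to 45 against 0 to 9 h), 2 to 4 (12 to 21 against 0 to 9 h; 2 without 3 h, 4 without 0 h), 0 (24 to 33 against 12 to 21 h) and 4 to 5 (36 to 45 against 24 to 33 h).

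Changes that took the other sign were all uncalled. From 0 to 9 h to 36 to 45 h TAPBP ILMN_23611 (-0.01) was 0.0022 without background correction and from -0.11 to 0.090 over arrays left out. To 12 to 21 h it (-0.04) ranged from -0.13 to 0.067, and TAPBP ILMN_26682 (-0.01) from -0.20 to 0.13. Under median scaling PSMB8 ILMN_12139 (-0.12) was 0.024 and HLA-E (-0.13) 0.058. From 24 to 33 h to 36 to 45 h PSMB8 ILMN_11795 (0.04) was -0.086 under median scaling and from -0.00072 (without 30 h) to 0.086 over arrays left out. HLA-C (0.00) was -0.071 under median scaling, -0.0087 under cyclic loess and from -0.11 to 0.12 over arrays left out.

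Called changes that no single array or scaling undid were the 4 late rises, HLA-B, HLA-E and B2M against 0 to 9 h, and the early falls of TAP1 and HLA-F. With the first and last 8 arrays as a term, the window differences between those sets could not be estimated. Probes near background, such as 2 of TAPBP and PSMB9, limit what can be read. Each of the 4 late rises lost its call in 0 of 16 fits that left out an array. For calls that a left-out array undid, a fault of single arrays cannot be told apart from chip, medium and treatment. Without replicates or an untreated series, chip, medium and treatment cannot be told apart for any call.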
